A study of Mus musculus with 8 samples.

Results

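The transcripts described here encode the autophagy machinery and the transcription factors of the TFEB family, measured in the hippocampus of mice with and without beta-glucuronidase deficiency. The members were 30 genes chosen by symbol, and every probe set (a group of short probes that reads 1 transcript) annotated to a single one of these symbols was taken. The array carried 51 such probe sets for 25 of the 30 genes, of 22626 probe sets in all once controls were set aside. Of the 10 genes of initiation and nucleation 9 were measured (21 probe sets), and all 11 genes of conjugation were measured (23 probe sets). Of the 6 cargo receptors 3 were measured (4 probe sets), and of the 3 TFEB-family factors 2 were measured (3 probe sets). Atg9a, Optn, Calcoco1 and Tfe3 had no probe set here, and Bnip3l had only probe sets that also list a pseudogene.

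RNA came from the right hippocampus of 8 mice, 1 Affymetrix expression array per animal, of the line B6.C-H2-Kbm1/ByBir carrying the mps allele of Gusb. The 4 normal mice were heterozygous (Gusb mps/+), so they too carried 1 copy of the mutant allele, and the 4 mutant mice were homozygous (Gusb mps/mps). The homozygote models mucopolysaccharidosis VII, a lysosomal storage disease in which glycosaminoglycans are not fully degraded. Normals 1 to 4 were a female of 38.3 weeks, a male of 25.6 weeks, a male of 19.6 weeks and a female of 14.6 weeks. Mutants 1 to 4 were a female of 38.3 weeks, males of 25.6 and 25.6 weeks and a female of 19.6 weeks. Both groups were housed together and received no treatment. No mouse without a mutant allele was among these arrays.

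Autophagy delivers cytoplasm and worn organelles to the lysosome inside double-membraned autophagosomes. The ULK kinases and their scaffold Rb1cc1 start the process, the Becn1 and Pik3c3 lipid kinase complex marks the membrane, and a ubiquitin-like cascade attaches ATG8 proteins (the LC3 and GABARAP families) to it. Receptors such as Sqstm1 tether cargo to the ATG8 proteins and are themselves degraded, so transcript levels do not report how fast autophagosomes are cleared. TFEB, TFE3 and MITF are related basic helix-loop-helix factors that move to the nucleus when mTORC1 at the lysosome is less active, and there bind the CLEAR element of many lysosomal and autophagy genes. Much of their control is by phosphorylation, which an expression array does not measure.

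The element that these factors bind was searched in the RefSeq promoter windows of GRCm38.p6, which run from 250 bases before to 50 bases after a gene's start. Of the 25 genes on the array 19 had a window. The hexamer CACGTG, the core of the element and its own reverse complement, stood in the windows of 4 of these 19 genes (21.1%), against 8.09% of all 27025 genes with a window. The CLEAR palindrome of 10 bases, which contains the hexamer, stood in 0 of the 19, against 0.37% of all genes. At so low a share, 0 of 19 does not show a lack of it. Among 22 lysosomal genes of a list of TFEB targets that had a window, 14 (63.6%) held the hexamer and 1 (4.55%) the palindrome. That list names its genes as targets through this element, so its share is not an independent comparison. The members' matches are printed because they show which autophagy genes carry these letters next to their start, with CACGTG in capitals and 20 flanking bases on each side, on the gene's own strand.
Atg3, chr16:45158715-45158760, plus strand: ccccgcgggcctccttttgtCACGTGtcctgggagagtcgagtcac
Atg3, chr16:45158738-45158783, plus strand: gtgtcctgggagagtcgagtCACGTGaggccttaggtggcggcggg
Atg5, chr10:44268305-44268350, plus strand: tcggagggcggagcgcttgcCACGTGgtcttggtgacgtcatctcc
Atg7, chr6:114670944-114670989, plus strand: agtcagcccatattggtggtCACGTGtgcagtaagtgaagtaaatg
Bnip3, chr7:138909589-138909634, minus strand: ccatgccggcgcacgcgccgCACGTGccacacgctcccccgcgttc
Atg3 held the hexamer at 2 places. In these windows the first base of the hexamer lay at positions -94 and -71 from the start in Atg3, -14 in Atg5, -132 in Atg7 and -108 in Bnip3. A match is a description of letters and not a binding site. No other member with a window held these letters in it.

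The values are log2 expression, so a difference of 1 is a doubling. Arrays were alike in their medians (6.09 to 6.17), but they differed in RNA quality and in regional content. For actin and Gapdh, the signal at the 3 prime end of the transcript minus that at the 5 prime end is used as a sign of RNA degradation, and its mean was 3.58 in normal 1 and 0.22 to 0.75 in the other 7 arrays. Means over a list of striatal neuron markers were 7.67 to 8.82 in normals 1, 3 and 4 and 5.53 to 6.26 in the other 5 arrays, although all tissue is labelled hippocampus. Of 12 probe sets for hippocampal pyramidal and granule cell markers, 6 lay above the absent bacterial controls on every array and 1 on none, and the list mean ran from 5.65 to 7.33, highest in mutant 3. Microglial marker means lay between 7.74 and 8.01 for the mutants and between 6.92 and 7.50 for the normals, myelin marker means between 8.83 and 9.74 and between 9.92 and 10.30, and choroid plexus means were highest in mutants 1 and 3 (8.44 and 7.79, against 4.82 to 6.10 elsewhere). In bulk tissue, fewer cells of a type and less RNA per cell cannot be told apart. Of the 2 Gusb probe sets, 1448124_at was lower in every mutant than in every normal (mean 4.55 ± 0.15 against 5.95 ± 0.48, SD, n = 4 each), and 1430332_a_at was not (5.93 ± 0.48 against 5.77 ± 0.53).

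The comparison of mutant with normal mice asked whether the transcripts of the autophagy machinery differ in a hippocampus whose lysosomes lack beta-glucuronidase. No autophagy gene passed the test. In limma (moderated linear models over all 22626 probe sets, Benjamini-Hochberg adjustment, threshold adjusted p 0.05), 0 of 51 member probe sets were called higher and 0 lower, and their lowest adjusted p was 0.800. Over the whole array 0.0796% of probe sets were called higher and 0.00884% lower. At an unadjusted p under 0.05, 1 member probe set was higher (Ambra1) and 1 lower (Wipi2), or 1.96% each, against 3.14% and 2.81% of all probe sets. Ambra1 was no longer at that p without normal 3 or 4, or without mutant 2, 3 or 4, and Wipi2 without normal 2 or 3 or mutant 3 or 4. With the striatal or the myelin marker mean as a covariate, the Ambra1 change was 0.095 or 0.11 in place of 0.28, and that of Wipi2 was -0.27 or 0.0013 in place of -0.34. However, the myelin mean was lower in every mutant than in every normal. The striatal mean was lower in every mutant than in normals 1, 3 and 4. Both covariates thus go largely with genotype, and these fits cannot tell marker and genotype apart. The mutant mean was lower for 35 of 51 probe sets (68.6%, against 52.9% of all) and higher for 16 (31.4%, against 47.1%), with several probe sets of 1 gene counted separately. By gene, 11 were lower and 8 higher on every probe set, and 6 were mixed. Of the mixed genes, Atg12 and Mitf were so only through a probe set at the level of absent controls. The median change was -0.10 over the members and -0.012 over all probe sets, and with the brightest probe set per gene it was -0.0049 over the 25 genes. Without normal 4 it was -0.051. The 95% confidence interval of the change lay within 1 log2 unit of 0 for 46 of the 51 probe sets (90.2%, against 82.7% of all) and within 0.5 for 17 (33.3%, against 43.7%). The half-width of these intervals ran from 0.21 to 1.39, with a median of 0.40. The narrowest belonged to Atg12 1439457_x_at, which stayed at the level of absent controls. Above those controls on every array were 44 member probe sets, with a median half-width of 0.42. Of these, 40 intervals lay within 1 (90.9%, against 79.8% of all such probe sets) and 13 within 0.5 (29.5%, against 33.9%).

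**Figure D1:**
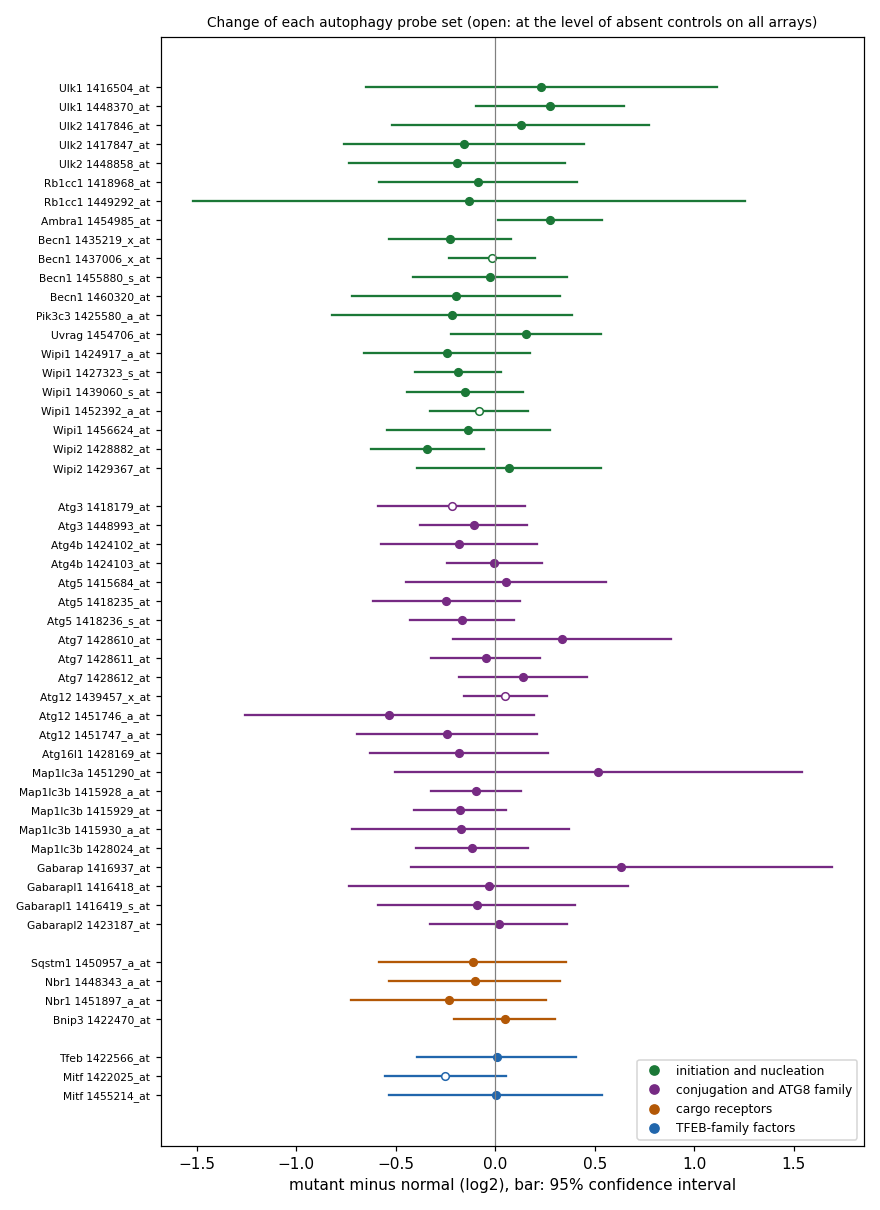
Change of each of the 51 member probe sets, mutant minus normal on the log2 scale (x axis), with its 95% confidence interval, coloured by role. Open circles are probe sets that did not exceed the absent controls on any array. Intervals of Ambra1 and 1 probe set of Wipi2 leave out 0 before adjustment, and the widest belong to Rb1cc1 1449292_at, Gabarap and Map1lc3a.

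No initiation or nucleation gene passed the test. Of their 21 probe sets 6 had higher and 15 lower means in mutants, with changes from -0.34 to 0.28 and a median of -0.13. Ambra1, which encodes a scaffold that promotes Becn1 and ULK1 activity, was read by 1 probe set. Its values were 8.12, 8.16, 7.86 and 7.96 in normals 1 to 4 and 8.13, 8.36, 8.33 and 8.37 in mutants 1 to 4. Mutants 2, 3 and 4 lay above every normal, while mutant 1 lay within the normal range, so the groups overlapped. The change was 0.28 ± 0.11 (SE; 1.21-fold; limma adjusted p = 0.824).

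Wipi2, which encodes a phosphoinositide-binding protein that brings the conjugation machinery to the growing membrane, was read by 2 probe sets that pointed in opposite directions. Probe set 1428882_at was at 6.83, 6.95, 7.02 and 6.91 in normals and at 6.85, 6.63, 6.37 and 6.50 in mutants. Its mutants 2, 3 and 4 lay below every normal, and mutant 1 lay just above normal 1. This change was -0.34 ± 0.12 (SE; limma adjusted p = 0.800). Probe set 1429367_at was at 7.82, 8.60, 8.30 and 8.69 in normals and at 8.40, 8.17, 8.62 and 8.49 in mutants. Here normal 1 was lowest and the groups overlapped fully (change 0.069 ± 0.20, limma adjusted p = 0.980). The probe sets of Wipi2 therefore gave no common direction.

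Wipi1, a relative of Wipi2, had 5 probe sets, all with lower means in mutants (changes of -0.24 to -0.08), of which 1452392_a_at stayed at the level of absent controls. Its probe set 1427323_s_at was at 5.74, 5.63, 5.79 and 5.57 in normals and at 5.53, 5.45, 5.50 and 5.51 in mutants. Every mutant lay below every normal, by a gap smaller than the normal SD of 0.10 (change -0.19 ± 0.094, limma adjusted p = 0.875). Over the whole array 1.75% of probe sets were separated in this direction and 1.81% in the other, against 2 of 51 (3.92%) and 0 of 51 here. The name of this probe set marks possible cross-hybridisation.

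**Figure D2:**
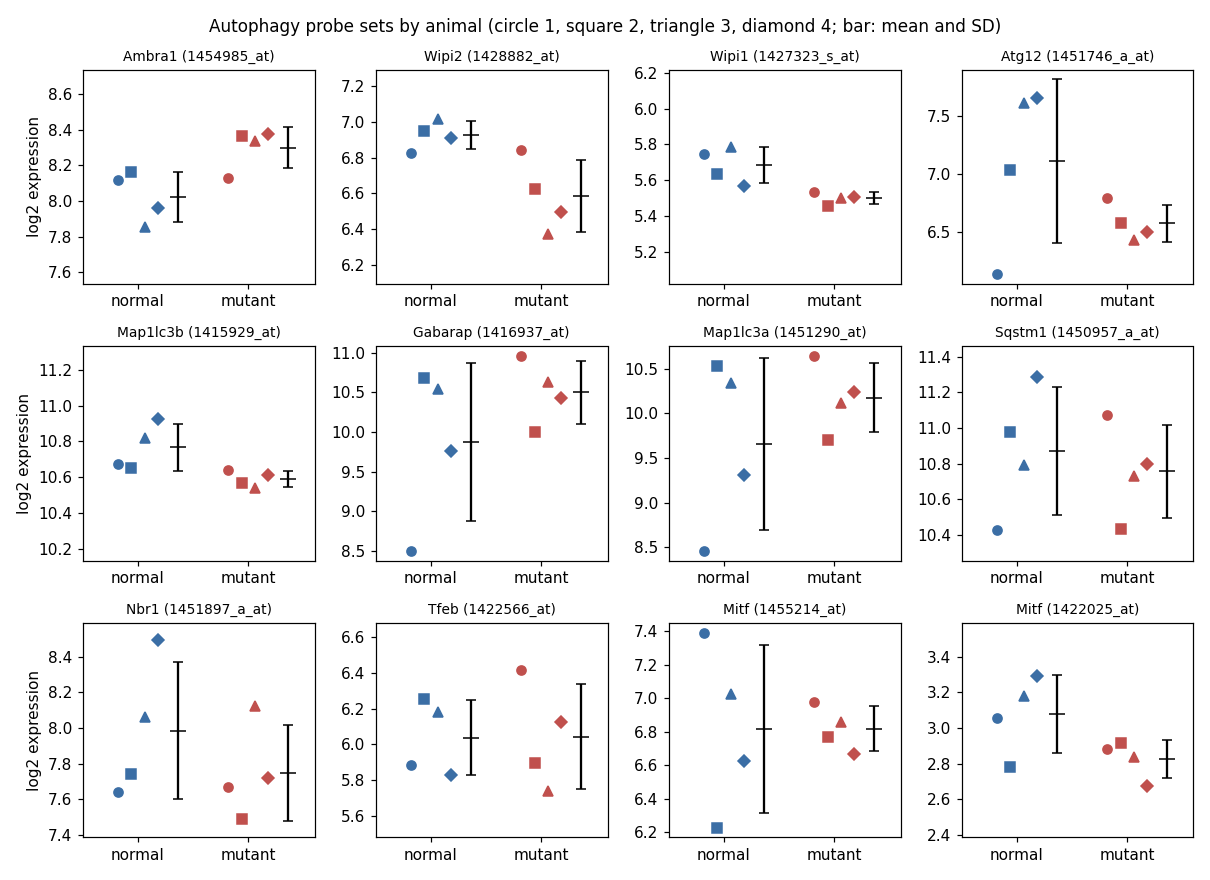
Log2 expression (y axis) of 12 autophagy probe sets in each of the 4 normal (blue) and 4 mutant (red) mice, with the group mean and SD in black. Only Wipi1 1427323_s_at and Map1lc3b 1415929_at show no overlap of the groups among these panels, and normal 1 (blue circle) is the lowest animal for Gabarap, Map1lc3a and Atg12 1451746_a_at.

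The kinase genes of the start signal and their scaffold did not pass either (adjusted p from 0.898 to 0.987). Ulk1 had higher means in mutants on both probe sets, by 0.28 ± 0.16 and 0.23 ± 0.39 (SE). Its probe set 1448370_at lay between 7.72 and 8.21 across the normals, and the mutants spanned 7.82 to 8.37. Ulk2, the related kinase, had changes of 0.13, -0.16 and -0.19 on 3 probe sets. Rb1cc1, which encodes the scaffold FIP200, changed by -0.087 ± 0.22 on the probe set well above background. Its other probe set, 1449292_at, ranged from 3.18 in normal 1 to 5.94 in mutant 3, so its change of -0.13 ± 0.61 carries little information.

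In the lipid kinase complex, Becn1, the core regulatory subunit, had lower means on all 4 probe sets, by changes of -0.23 to -0.016, 1 of them at the level of absent controls. Normal 4 stood out, with 10.24 on probe set 1460320_at against 9.18 to 9.64 in the other 7 animals. Pik3c3, the catalytic subunit, changed by -0.22 ± 0.26 (SE) and Uvrag, a subunit that acts on maturation and endosomes, by 0.15 ± 0.16. None of these passed in limma (adjusted p from 0.898 to 0.991).

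Conjugation and ATG8 genes had 7 higher and 16 lower means among 23 probe sets, with a median change of -0.097. The 3 probe sets of all 51 with changes over 0.5 in size, Gabarap, Map1lc3a and 1 probe set of Atg12, all belong here (3 of 51, 5.88%, against 8.46% of all probe sets). Normal 1 was the lowest array for each. Atg12, whose ubiquitin-like product is joined to Atg5, was read at 6.14, 7.04, 7.61 and 7.65 in normals and at 6.80, 6.58, 6.43 and 6.50 in mutants by probe set 1451746_a_at. Normals 2 to 4 lay above all mutants, and normal 1 lay below all of them. The change was -0.53 ± 0.32 (SE; limma adjusted p = 0.898) and, without normal 1, -0.86 ± 0.18 (adjusted p = 0.206). The second Atg12 probe set, 1451747_a_at, put normal 1 highest (8.78) and changed by -0.24 ± 0.20, or -0.13 ± 0.20 without normal 1. The 2 probe sets thus disagreed on normal 1, and the third (1439457_x_at) stayed at the level of absent bacterial controls in every array (highest 2.27, with absent controls up to 3.72).

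Map1lc3b, the LC3 gene most used to mark autophagosomes, had lower means in mutants on all 4 probe sets, none of which passed (limma adjusted p from 0.896 to 0.947). Probe set 1415929_at was at 10.67, 10.65, 10.82 and 10.93 in normals and at 10.64, 10.57, 10.54 and 10.61 in mutants. Every mutant lay below every normal, but the lowest normal (10.65) and the highest mutant (10.64) lay side by side. The change was -0.18 ± 0.10 (SE; limma adjusted p = 0.896), and the interval ran from -0.41 to 0.054. The other probe sets changed by -0.097, -0.17 and -0.12, the last close to background.

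Gabarap and Map1lc3a, which encode ATG8 proteins of either subfamily, had the widest spread between animals among the conjugation and ATG8 probe sets. Gabarap was at 8.50, 10.67, 10.54 and 9.76 in normals and at 10.95, 10.002, 10.63 and 10.42 in mutants. Map1lc3a was at 8.46, 10.53, 10.34 and 9.30 in normals and at 10.64, 9.70, 10.12 and 10.24 in mutants. For both genes normal 1 was lowest, normal 4 next, and mutant 1 highest, and the other normals lay within the mutant range. Gabarap changed by 0.63 ± 0.46 (limma adjusted p = 0.910), and by 0.18 ± 0.29 without normal 1. Map1lc3a changed by 0.52 ± 0.45 (SE, limma adjusted p = 0.922), and by 0.12 ± 0.33 without that animal. Gabarapl1 was also lowest in normal 1 on both probe sets (10.43 and 11.50), but highest in normal 4 (11.98 and 12.48). Gabarapl2 ranged only from 10.49 to 11.01 over all 8 arrays (change 0.017 ± 0.15).

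The enzymes of the cascade and the Atg5 complex did not pass in limma (adjusted p from 0.900 to 0.998). Atg7, the activating enzyme, changed by 0.34 ± 0.24, -0.048 ± 0.12 and 0.14 ± 0.14 (SE) on 3 probe sets. The first of these, 1428610_at, had 6.30 in normal 4, the youngest animal, and 7.02 to 7.54 in the other 7. Atg3, the conjugating enzyme, changed by -0.11 ± 0.12 on its probe set above background, and Atg4b, the protease that trims ATG8 proteins, by -0.18 ± 0.17 and -0.0049 ± 0.10. Atg5 had changes of 0.056, -0.25 and -0.17, and its partner Atg16l1 changed by -0.18 ± 0.20.

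**Figure D3:**
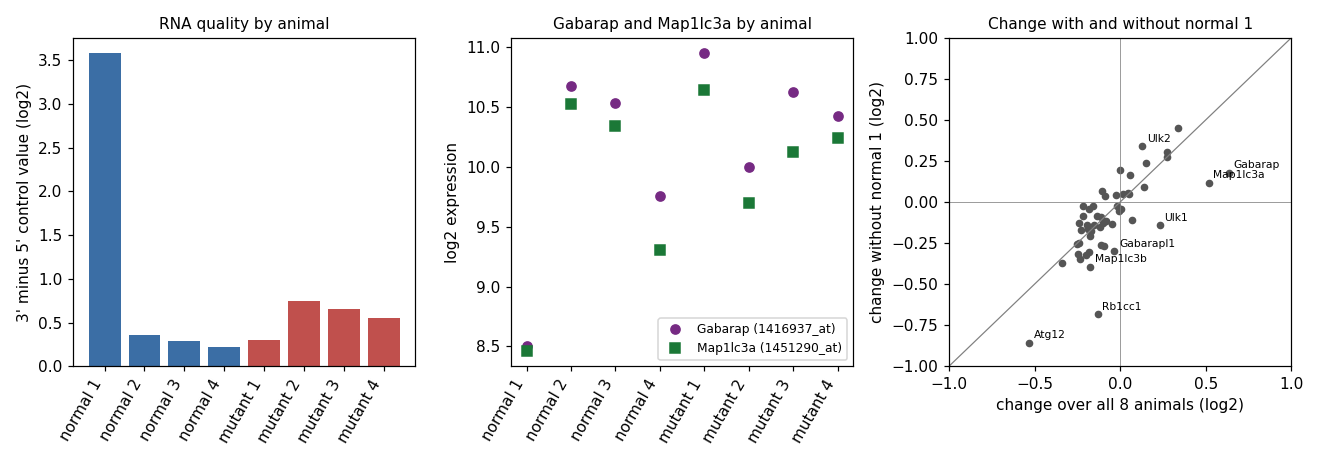
Left, 3 prime minus 5 prime control value by animal (log2), highest in normal 1 at 3.58. Middle, log2 expression of Gabarap and Map1lc3a by animal, lowest in normal 1 for both. Right, change of each of the 51 probe sets over all 8 animals (x) against the change without normal 1 (y), with the diagonal of equality and the 8 probe sets that moved by over 0.2 named.

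The array of normal 1 stood apart in these genes as in its control values. It held the lowest of the 8 values for 14 member probe sets (27.5%, against 16.4% of all probe sets) and the highest for 10 (19.6%, against 22.5%). Normal 4, the youngest mouse, held the highest value for 16 (31.4%, against 17.9%). The 5 probe sets whose intervals reached beyond 1 log2 unit were Ulk1 1416504_at, Rb1cc1 1449292_at, Atg12 1451746_a_at, Gabarap and Map1lc3a, and normal 1 was the lowest array for each. Leaving normal 1 out moved 8 of the 51 changes by over 0.2, among them Ulk1 1416504_at (0.23 to -0.14), Gabarapl1 1416418_at (-0.034 to -0.30) and Map1lc3b 1415930_a_at (-0.17 to -0.39). With that array left out, 1 member was higher and 3 lower at an unadjusted p under 0.05, where 4.44% and 5.71% of all probe sets were, and none passed after adjustment. The part of RNA quality in the values of normal 1 was not tested.

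No cargo receptor passed the test. Sqstm1 (p62), which links ubiquitinated cargo to LC3, was at 10.43, 10.98, 10.79 and 11.29 in normals and at 11.07, 10.44, 10.73 and 10.80 in mutants. High and low animals occurred in both groups, and the change was -0.11 ± 0.21 (SE; interval -0.58 to 0.36, limma adjusted p = 0.960). Nbr1, a receptor related to Sqstm1, was at 7.64, 7.74, 8.06 and 8.49 in normals and at 7.67, 7.49, 8.12 and 7.72 in mutants on probe set 1451897_a_at. Normal 4 was highest and the remaining animals intermingled (-0.23 ± 0.21, limma adjusted p = 0.923). Its other probe set, 1448343_a_at, was at 10.69, 9.93, 9.998 and 10.10 in normals and at 9.81, 10.28, 10.11 and 10.10 in mutants. There normal 1 was highest, and the change was -0.10 ± 0.19 (0.067 without normal 1). Bnip3, a mitophagy receptor induced by low oxygen, was the steadiest of the receptors, between 10.48 and 10.79 in all 8 animals (0.047 ± 0.11, interval -0.21 to 0.30).

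Neither transcription factor gene passed the test. Tfeb was at 5.89, 6.25, 6.18 and 5.83 in normals and at 6.42, 5.89, 5.74 and 6.12 in mutants. Mutant 1 was highest and mutant 3 lowest, so the mutants spanned the normals, and the change was 0.0066 ± 0.17 (SE; interval -0.39 to 0.41, limma adjusted p = 0.998). Mitf was at 7.39, 6.23, 7.03 and 6.63 in normals and at 6.98, 6.77, 6.86 and 6.67 in mutants on probe set 1455214_at. The normals had both the highest and the lowest value, with an SD of 0.50 against 0.13 in mutants, and the change was 0.0015 ± 0.23 (interval -0.53 to 0.54). With the striatal marker mean as a covariate it was 0.66 (limma adjusted p = 1.00), and the Tfeb change was 0.57 with the myelin marker mean (adjusted p = 0.805). Both marker means go largely with genotype here, so these fits cannot tell marker and genotype apart. Probe set 1422025_at of Mitf was at 3.06, 2.78, 3.18 and 3.29 in normals and at 2.88, 2.92, 2.84 and 2.68 in mutants, all at the level of absent controls, so it carries no information on Mitf.

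Sex and age were looked at because both differ among the animals. The genotype effect was compared between males and females with 2 animals in each of the 4 cells, and 0 of 51 member probe sets passed the interaction in limma (lowest adjusted p = 0.397), as did 0 of 22626 overall. At an unadjusted p under 0.05, 11 members (21.6%) passed, against 10.5% of all probe sets. Rb1cc1 1418968_at changed by -0.64 in females and 0.46 in males, and the 3 probe sets of Ulk2 ran the same way, lower in female mutants (-0.80 to -0.45) and higher in male mutants (0.35 to 0.71). Becn1 1455880_s_at, Pik3c3 and Atg12 1451747_a_at also ran this way. Map1lc3a and Gabarap ran the other way, at 1.56 in females each and -0.52 and -0.29 in males. So did Wipi1 1424917_a_at (0.12 in females, -0.60 in males). The other Rb1cc1 probe set, 1449292_at, was at 0.18 in females and -0.45 in males, without reaching that p. Tfeb was at 0.41 in females and -0.40 in males. The female normals were normals 1 and 4, the animal with the high 3 prime minus 5 prime value and the youngest animal, so sex cannot be told apart from these features here. With age as a covariate the lowest adjusted p among members was 0.836.

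The other genes of the pathway, taken as whole lists, held no call either. Of 30 further genes of autophagosome formation and fusion 23 were measured (44 probe sets), with a median change of 0.028. Means were higher for 26 (59.1%, against 47.1% of all probe sets) and lower for 18 (40.9%, against 52.9%). Past adjusted p 0.05 there were 0. At unadjusted p 0.05, 3 were higher and 2 lower (6.82% and 4.55%, against 3.14% and 2.81% of all probe sets). The 2 lower probe sets were both of Vmp1, which encodes an endoplasmic reticulum protein needed to form autophagosomes. Its probe set 1421491_a_at was at 8.59, 8.56, 9.01 and 8.82 in normals and at 8.32, 7.86, 8.28 and 7.97 in mutants. Every mutant lay below every normal (change -0.64 ± 0.15 SE, limma adjusted p = 0.422), and probe set 1423722_at changed by -0.43 ± 0.15 (adjusted p = 0.748) with groups that overlapped. Of 16 further cargo receptor and mitophagy genes 14 were measured (26 probe sets, median 0.0030), with 1 higher (3.85%, against 3.14% of all) and 0 lower at unadjusted p 0.05. That was Tollip, a ubiquitin-binding adaptor (0.37 ± 0.14, adjusted p = 0.809), and Fundc1, a mitochondrial receptor, followed at -0.24 ± 0.14 (adjusted p = 0.896). Among 31 mTORC1, AMPK and folliculin regulators 24 were measured (45 probe sets, median 0.039), and 0 reached unadjusted p 0.05 in limma. The smallest p belonged to the stress sensor Sesn3 (-0.48 ± 0.24, adjusted p = 0.874) and the transcription factor Foxo1 (-0.84 ± 0.47, adjusted p = 0.896), both highest in normals 1 and 4. Tecpr1, Tollip, Fundc1 and Foxo1 had further probe sets, and the values given are those of the probe set with the smallest p. Vps11 1452489_at is not given either.

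**Figure D4:**
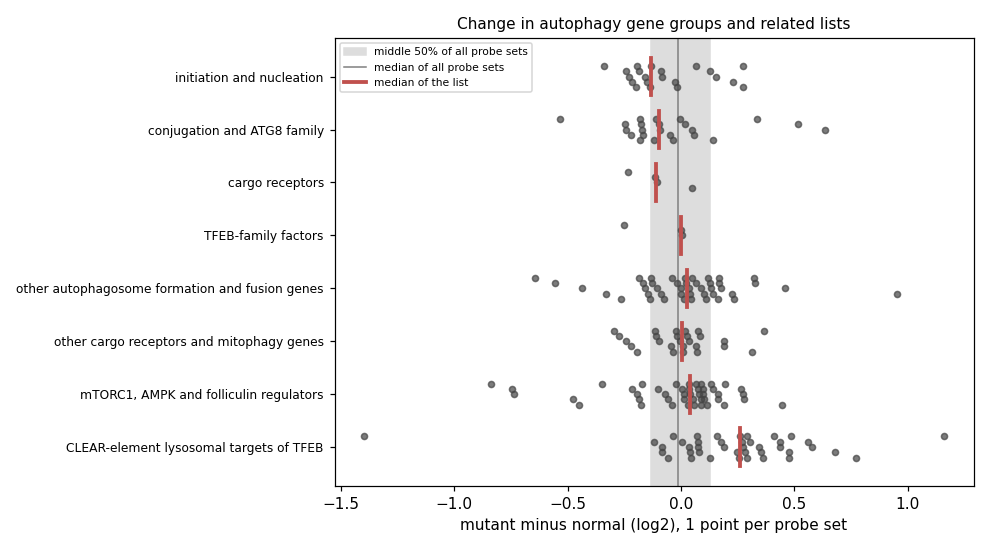
Change of each probe set, mutant minus normal on the log2 scale (x axis), in the 4 member groups and 4 related gene lists (y axis), with list medians in red. Grey marks the median and the middle 50% of all probe sets. The member groups have medians of -0.13, -0.097, -0.11 and 0.0015, and the lysosomal targets 0.26.

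Of the lysosomal genes listed as targets of TFEB through the CLEAR element, 0 passed adjusted p 0.05. Of 30 listed genes 25 were measured (41 probe sets), of which 35 had higher means (85.4%, against 47.1% of all) and 6 lower. At unadjusted p 0.05, 9 were higher (22.0%, against 3.14% of all probe sets) and 1 lower (2.44%, against 2.81%). The groups were separated upward for 6 (14.6%, against 1.81%) and downward for 1 (2.44%, against 1.75%). Changes ran from -1.40 to 1.16 with a median of 0.26. Averaged over the list, mutants lay between 8.15 and 8.31, and no normal exceeded 8.10. The lowest, 7.87, was normal 1, the array with the high 3 prime minus 5 prime value, and the other normals lay at 8.00 to 8.10. The smallest p belonged to the mutated gene Gusb (-1.40 ± 0.23 SE on 1448124_at, limma adjusted p = 0.136) and to the lysosomal protease gene Ctsd. Ctsd was at 8.73, 10.11, 9.63 and 9.80 in normals and at 10.88, 10.38, 10.83 and 10.82 in mutants, so that every mutant lay above every normal (1.16 ± 0.28, adjusted p = 0.425). Normal 1 was again the lowest array, and the Ctsd change without it is not given here. The difference between this list and the autophagy members was not tested. The microglial list mean was also above every normal in every mutant: 12 of its 20 probe sets had higher means, 8 lower, and 11 were separated upward and 0 downward. The astrocyte list mean (8.67 to 8.76 in mutants, 8.26 to 8.39 in normals) and the meningeal list mean (5.80 to 6.30, against 4.95 to 5.72) were separated in the same way. The part of these markers in the lysosomal values was not tested.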

How the data were processed

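The authors deposited log2 expression values per probe set, made with RMA, and GCOS 1.4 is named too, per the submitters' processing notes. The array annotation's genome build is not given in the sources used here, and scanner files were not used here. Setting aside 64 control probe sets of 22690 left 20380 with 1 gene symbol, 691 with several and 1555 with no listed gene, and 99.9% of single symbols matched RefSeq gene identifiers. All 22626 probe sets were fitted with limma 3.58.1 in R 4.3.3 (lmFit, eBayes). Changes are mutant minus normal with the moderated standard error. The 15 probe sets for absent bacterial transcripts (highest 3.72) marked background. Precision is limited by the number of animals. Replicate numbers follow accession order.

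Members, lists, tests and alternatives were chosen with earlier results of these data known. All members are named. Values of every array are given for the 2 probe sets with the smallest p per role, for all probe sets of TFEB-family factors, and for members whose probe sets disagree in sign with at least 1 at unadjusted p under 0.05. Wipi1 1427323_s_at, Gabarap, Map1lc3a, Sqstm1, Vmp1 and Ctsd got theirs after their values were seen. From each related list the 2 with the lowest p are named. For autophagosome formation and fusion, the higher ones at unadjusted p under 0.05 and the separated ones are named too. Alternatives were per-gene values, filters on probe sets, renormalization, other eBayes settings, array weights, covariates, an age block and leaving out animals. Normals 1 and 4 were left out together after the data were seen. Steps were tested on simulated data. Promoter windows came from RefSeq (GRCm38.p6), and figures were drawn with Python 3.11.15.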

Additional observations from a re-analysis of the deposited data

Results flagged for a closer look

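In 5 of 102 sets of 4 arrays (51 probe sets in either genotype, 4.9%), 1 array lay farther from its group than Dixon's criterion for 4 samples allows, and chance gives about 1 in 20. Ambra1 was at 8.13 in mutant 1, below 8.33 to 8.37 in the other mutants. Becn1 1460320_at was at 9.64 in mutant 3, above 9.24 to 9.29. Atg5 1418236_s_at was at 6.69 in normal 4, above 6.53 to 6.54 in the other normals, and at 6.65 in mutant 3, above 6.30 to 6.35. Gabarapl1 1416419_s_at was at 11.56 in mutant 2, below the other mutants, of which the highest was at 12.07.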

How the results depend on the processing

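Each of 26 other settings left 0 of 51 member probe sets past adjusted p 0.05 in limma (lowest adjusted p from 0.206 to 1.00), and 122 of 1226 changes took the opposite sign. Leaving out 1 mouse at a time gave 0 to 2 members higher and 0 to 3 lower at unadjusted p 0.05. Of all probe sets, 1.97% to 4.61% were higher and 1.5% to 5.71% lower at that p. The other counts were 0 to 2 members separated upward, 2 to 4 downward and 0 to 1 pathway calls. The median member change was -0.12 to -0.051. The higher count (1) was 0 without the dimmest 40% of probe sets, with median centring, with trend and robust eBayes, with sex, age, both, or thalamic markers as covariates, and without mutants 1 and 3, normals 1 and 3, or normals 1 and 4. The lower count (1) was 0 with either per-gene value and with trend and robust eBayes. It was 5 with array weights (8.19% of all probe sets) and 4 with myelin markers as a covariate (3.32% of all). It was 2 without mutants 1 and 3 (2.43% of all) or normals 1 and 4 (4.51% of all). An unchanged count did not always hold the same gene. Myelin markers gave Tfeb higher (2.64% of all), and Atg5, Rb1cc1, Becn1 and Ulk2 lower. Striatal markers gave Mitf higher (0.743% of all) and Wipi1 lower (0.385% of all). The lower one was Atg12 without normals 1 and 3 (3.39% of all) and Mitf without normal 2 (5.01% of all). The upward separated count (0) was 6 without mutants 1 and 3 and 2 without normals 1 and 3. The downward one (2) was 0 with either per-gene value and 1 without cross-hybridising probe sets. It was 5 without mutants 1 and 3, 4 without normals 1 and 3 and 6 without normals 1 and 4. Leaving out animals can only keep or raise a separated count. The share of all probe sets separated in those settings is not given here. Gusb passed in the pathway lists (1 call) with array weights and without normal 2. The median member change was -0.0049 with the brightest probe set per gene. With myelin markers as a covariate Wipi2 1428882_at was at 0.0013, Atg12 1451746_a_at at 0.14 and Mitf at -0.18. Wipi2 1429367_at was at -0.28 with striatal markers, -0.021 without mutants 1 and 3, -0.22 without normals 1 and 3 and -0.027 without normals 1 and 4 (-0.11 to 0.18 leaving out 1 mouse). Nbr1 1448343_a_at was at 0.033 with array weights, 0.050 with striatal markers, 0.0091 without mutants 1 and 3, 0.061 without normals 1 and 3 and 0.11 without normals 1 and 4 (-0.19 to 0.067). Tfeb moved most with myelin markers, to 0.57 (adjusted p = 0.805), and was at -0.050 with array weights, -0.014 with age, -0.013 with sex and age, -0.0039 with same age as a block, -0.022 with thalamic markers, -0.028 without mutants 1 and 3 and -0.17 without normals 1 and 4 (-0.12 to 0.11). Mitf 1455214_at moved most with striatal markers, to 0.66 (adjusted p = 1.00), was at 0.39 without normals 1 and 3, and was at -0.0033 with median centring, -0.035 with array weights, -0.059 with age, -0.055 with sex and age, -0.040 with same age as a block and -0.10 without mutants 1 and 3 (-0.19 to 0.19). Myelin and striatal marker means go largely with genotype, so fits with them as covariates cannot tell marker and genotype apart. The cause of these moves was not tested. No paired analysis was possible because the replicate numbers follow accession order and no label names littermates; mice that share age and sex may be littermates, and same age as a block was the nearest fit. Leaving out normals 1 and 4 together was chosen after seeing the data.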

Other observations

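Bnip3l, the mitophagy receptor related to Bnip3, was read by 3 probe sets that also list the pseudogene Bnip3l-ps, so they cannot be assigned to Bnip3l alone. Their changes were 0.063 ± 0.14, 0.016 ± 0.20 and -0.22 ± 0.17 (SE, n = 4 mice per group; limma adjusted p from 0.919 to 0.997). Probe set 1448525_a_at had its highest value, 9.35, in normal 4, as did Sqstm1, Gabarapl1, Becn1 1460320_at and Nbr1 1451897_a_at.

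Of the 15 member genes with several probe sets, 6 had probe sets that pointed in opposite directions (Atg12, Atg5, Atg7, Mitf, Ulk2 and Wipi2). For Atg12 and Mitf the opposite sign came only from a probe set at the level of absent controls. Of all 25 genes, 11 were lower and 8 higher on every probe set.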
